A study of Homo sapiens with 8 samples.

Results

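VCAM1 and 9 other cell adhesion molecules of the immunoglobulin superfamily were followed across 8 RNA libraries of LY2 cells. The genes were VCAM1, ICAM1, ICAM3, ALCAM, L1CAM, NCAM2, MCAM, BCAM, CEACAM5 and CEACAM6, taken by symbol from a table of 63677 genes, of which 38332 had a read in at least 1 library. All 10 were found once with reads, and a second row for L1CAM, CEACAM5 and CEACAM6 held 0 reads. LY2 cells derive from MCF-7 breast cancer cells and resist endocrine therapy. The shSRC1 group (4 libraries) carried short hairpin RNA against NCOA1, which encodes the nuclear receptor coactivator SRC-1, and the shNT group (4 libraries) carried a non-targeting hairpin. Both were stable lines kept under 500 ng/mL puromycin and maintained in 1e-08 mol/L 4-hydroxytamoxifen, the active tamoxifen metabolite. Before harvest both were deprived of steroids for 72 h and then given 1e-07 mol/L 4-hydroxytamoxifen for 8 h, so no group went without the drug. How many hairpins or clones were used is not given in the sources used here, nor whether replicates were separate cultures, so errors and p-values reflect the scatter of these libraries alone, which may be technical.

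Immunoglobulin adhesion molecules are surface glycoproteins that hold cells to each other through stacked immunoglobulin domains. VCAM1 and the ICAMs are counter-receptors of leukocyte integrins; VCAM1 binds the alpha4 integrins and is best known from cytokine-activated endothelium, where NF-kB drives its transcription together with that of ICAM1. L1CAM and NCAM2 belong to neural families that bind like molecules on neighbouring cells, ALCAM binds itself and CD6, MCAM is found on endothelium and melanoma cells, BCAM is the Lutheran laminin receptor, and CEACAM5 and CEACAM6 are lipid-anchored carcinoembryonic antigens of epithelium.

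The promoters of VCAM1 and ICAM1 are shown because both genes are textbook NF-kB targets, while VCAM1 differed between the groups and ICAM1 was nearly level. Each line holds the 250 bases before the RefSeq transcription start (GRCh38.p14), VCAM1 from chr1:100719492-100719741 and ICAM1 from chr19:10270870-10271119, both on the plus strand. Capitals mark matches on the printed strand to a loose kappaB pattern (GGG, any 5 bases, CC) or to TATAAA.
VCAM1: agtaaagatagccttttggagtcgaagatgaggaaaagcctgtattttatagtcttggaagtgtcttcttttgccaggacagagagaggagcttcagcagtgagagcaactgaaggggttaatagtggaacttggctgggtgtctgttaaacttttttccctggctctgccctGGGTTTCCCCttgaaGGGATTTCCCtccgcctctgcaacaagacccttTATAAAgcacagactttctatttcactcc
ICAM1: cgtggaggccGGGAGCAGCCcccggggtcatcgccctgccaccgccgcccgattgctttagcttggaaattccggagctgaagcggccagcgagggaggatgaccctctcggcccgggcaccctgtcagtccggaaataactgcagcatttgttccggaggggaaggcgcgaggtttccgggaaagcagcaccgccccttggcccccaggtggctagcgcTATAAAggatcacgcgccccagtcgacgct
The VCAM1 window held a closely spaced pair of loose kappaB matches, GGGTTTCCCC and GGGATTTCCC, whose first bases lay 77 and 62 bases before the start, and TATAAA 29 bases before it. GGGATTTCCC also matched a narrower pattern (GGG, any 2 bases, TT, any base, CC). The ICAM1 window held 1 loose match on the printed strand, GGGAGCAGCC at 240 bases, no match to the narrower pattern, and TATAAA at 30 bases. Both kappaB patterns start with GGG, so similar stretches that start otherwise were not counted. TGGAAATTCC in the ICAM1 line is such a stretch, so these counts do not show that ICAM1 lacks a kappaB site nearer its start. Searched on both strands of 35116 RefSeq promoter windows of this length, the loose pattern was found in 54.4%, the narrow one, whose matches all lie within those of the loose one, in 5.07% and TATAAA in 10.7%. A match to the narrow pattern was found in VCAM1 alone among the 10 genes, a result that depends on the letters chosen for it. ICAM3, with a log2 difference of 0.06 between the groups, held the loose match GGGAGGCCCC 56 bases before a start. The part of any match in the VCAM1 difference was not tested. None of the 10 held the estrogen response element (GGTCA, any 3 bases, TGACC), present in 0.0399% of windows, or the AP-1 pattern TGANTCA, present in 6.57%. These are matches of letters and show no binding, and matches on the other strand can overlap those printed.

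The libraries held 33771775 to 66248960 gene-assigned reads in shSRC1 and 58459196 to 67022036 in shNT; shSRC1 replicate 2 was the shallowest. Values are normalized reads, meaning read counts divided by a size factor for each library. NCOA1 stood at 2036 ± 151 normalized reads in shSRC1 and 4396 ± 137 in shNT (SD, n = 4 each). Markers of luminal breast epithelium were abundant in both groups, E-cadherin (CDH1) averaging 51552 normalized reads in shSRC1 and 47667 in shNT. In the fit over all 19559 tested genes, 12.0% of genes were called higher and 11.2% lower in shSRC1 (limma, adjusted p under 0.05).

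The 10 genes were selected on their measured values in shSRC1 against shNT in this same table, so their own differences are described here without a test. In 3 of the 10 every shSRC1 library lay above every shNT library (VCAM1, ALCAM and MCAM), in 3 every shSRC1 library lay below (L1CAM, NCAM2 and CEACAM5), and in 4 the groups overlapped (ICAM1, ICAM3, BCAM and CEACAM6). Over all tested genes the groups did not overlap in 16.9% with shSRC1 higher and in 12.1% with shSRC1 lower. All 10 passed the filter on low values, 10 or more normalized reads in 4 or more of the libraries. VCAM1 passed it through the shSRC1 libraries alone, and the other 9 reached 10 in all 8 libraries.

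**Figure D1:**
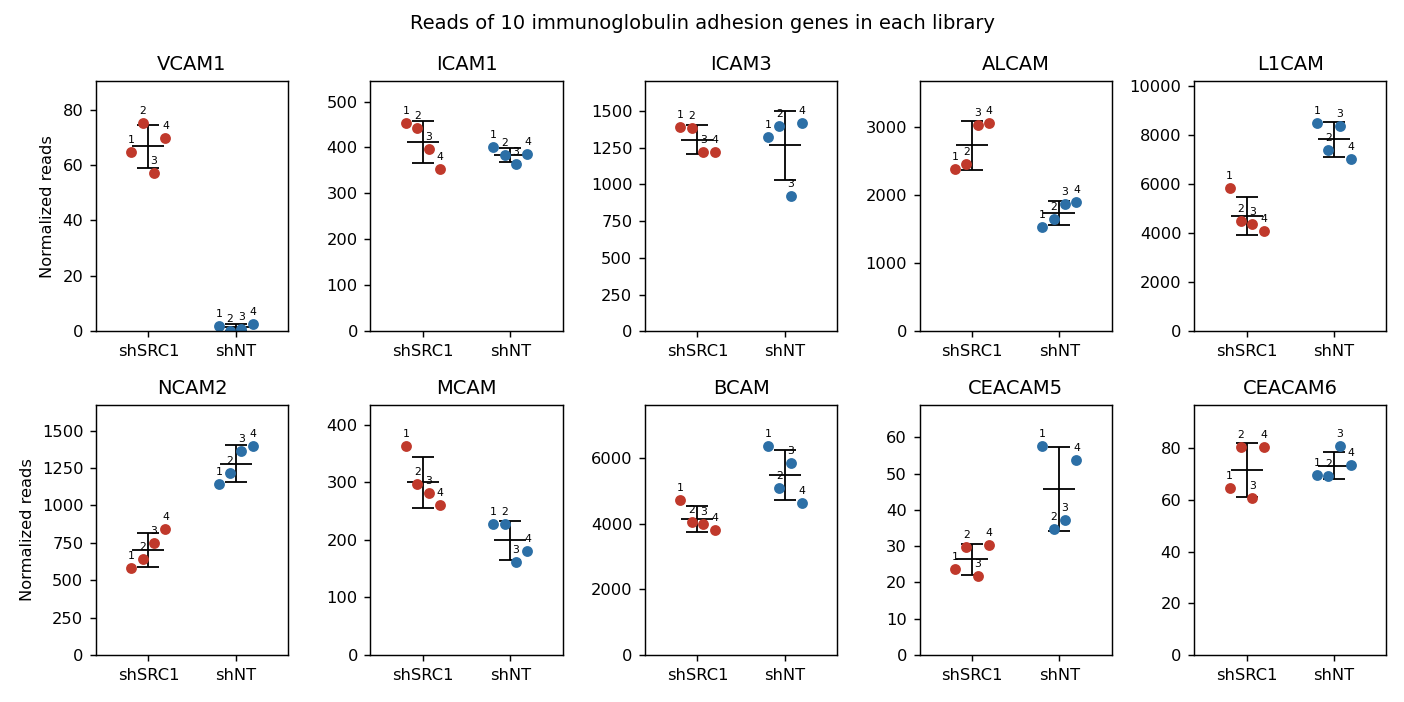
Normalized reads of each adhesion gene (y axis, from 0) in the 4 shSRC1 libraries (left, red) and the 4 shNT libraries (right, blue); digits are replicate numbers, and bars are the mean and SD. VCAM1 lies at 57.3 or above in shSRC1 and at 2.69 or below in shNT, whereas ICAM1, ICAM3 and CEACAM6 share one range.

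VCAM1 (ENSG00000162692, chromosome 1) had 64.6, 75.2, 57.3 and 69.6 normalized reads in shSRC1 replicates 1 to 4, against 1.86, 0, 0.928 and 2.69 in shNT replicates 1 to 4. The transcript was thus close to absent in the control hairpin cells and present at a low, even level in every shSRC1 library. In whole reads these were 68, 43, 63 and 76 in shSRC1 and 2, 0, 1 and 3 in shNT, or 250 against 6 in all. The ratio of these summed reads, each sum divided by the summed size factors of its group, was 48.0. Its exact 95% counting interval was 21.7 to 132, which covers counting error only. On the log2(value + 1) scale, which understates changes of genes with low values, the difference was 4.99 (SE 0.43). The 4 shSRC1 libraries differed by a coefficient of variation of 11.5%. In bulk RNA, more cells with the transcript and more transcript per cell cannot be told apart.

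The level of VCAM1 stayed modest beside the other adhesion genes. Per kb of exon it reached 11.02 ± 1.3 normalized reads in shSRC1 and 0.226 ± 0.192 in shNT (SD, n = 4 each). That placed it above 10.99% of 18787 tested genes with a known length in shSRC1, against 0.0160% in shNT. VCAM1 passed the filter through shSRC1 alone, and genes low in both groups were left out. Its rank near the bottom in shNT therefore follows from the filter. In shSRC1 only CEACAM5 stood lower among the 10, and in shNT VCAM1 was the lowest of all. The genes beside VCAM1 on chromosome 1 did not share its difference. Its 20 nearest tested protein-coding genes, 10 on each side, had log2 differences from -1.31 to 0.63 with a median of -0.07, and the immediate neighbours CDC14A and EXTL2 had -0.13 and 0.05.

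Because VCAM1 marks endothelium and stroma, markers of those cells were read beside it. PECAM1, the defining endothelial adhesion molecule, had 0 reads in all 8 libraries. Whether reads could be assigned to its row was not tested, and the second row of L1CAM, a gene with many reads, also held 0. CDH5, the endothelial cadherin, had 7 reads in the shSRC1 libraries together and 30 in the shNT libraries, and TEK, an endothelial receptor tyrosine kinase, had 1 in each. KDR, a VEGF receptor, had 68 reads in shSRC1 and 16 in shNT and missed the filter. The 9 endothelial markers summed to between 452 and 481 normalized reads in shSRC1 libraries and between 467 and 528 in shNT libraries, most of it from VWF and ERG. None of 4 tested endothelial and none of 5 tested fibroblast markers passed the limma threshold; at an unadjusted p under 0.05, 1 endothelial marker was lower, and edgeR and DESeq2 called 0. The 8 fibroblast markers summed to 1452 to 1979 normalized reads in shSRC1 and 1638 to 2190 in shNT, nearly all from COL1A1. The leukocyte markers PTPRC (CD45) and CD3E had 14 and 1 reads in shSRC1 and 15 and 1 in shNT, and MS4A1 had 0. The 9 leukocyte markers summed to 168 to 194 normalized reads in shSRC1 and 255 to 288 in shNT, of which ITGB2 was the largest part and the only 1 of 4 tested to pass, lower in shSRC1. Among 10 markers of luminal breast epithelium, all tested, the keratin genes KRT8, KRT18 and KRT19 rose and none fell in limma. Over all tested genes 23.2% were called in limma, 12.0% higher and 11.2% lower, and these marker sets are too small to set against that. The share of all tested genes at an unadjusted p under 0.05 was not computed. All 10 luminal markers together summed to 516966 to 586750 normalized reads in shSRC1 and 343162 to 420319 in shNT. The part of any of these cell types in the VCAM1 difference was not tested.

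The genes whose values followed VCAM1 most closely over the 8 libraries included HCCAT3, ABCD4, KCNK5 and NLRP1, with Pearson correlations of 0.993, 0.991, 0.991 and 0.987 on the log2(value + 1) scale. They were drawn from 15109 candidates, 182 of which exceeded 0.95, and all of these share the libraries and the contrast between the groups. NLRP1, an inflammasome sensor, had 75.6 normalized reads in shSRC1 and 15.0 in shNT. ABCD4, a cobalamin transporter, differed much less, with 2256 normalized reads in shSRC1 and 1963 in shNT.

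Unlike VCAM1, its fellow integrin counter-receptor ICAM1 was nearly level between the groups. ICAM1 (chromosome 19) had 454, 443, 397 and 353 normalized reads in shSRC1 replicates 1 to 4, against 400, 384, 364 and 386 in shNT. The ranges overlapped on both sides, and the log2 difference was 0.10 (SE 0.11). ICAM3, the ICAM of resting leukocytes, had 1392, 1386, 1221 and 1218 normalized reads in shSRC1, against 1326, 1396, 922 and 1420 in shNT. One control library, replicate 3, lay apart from the other 3, and the log2 difference of 0.06 (SE 0.12) became -0.08 without it. ICAM3 was the more abundant of these leukocyte ligands, at 442 ± 33 normalized reads per kb of exon in shSRC1 and 429 ± 79 in shNT, against 111 ± 12 and 103 ± 4 for ICAM1 in the same groups (SD, n = 4 each).

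ALCAM (CD166, chromosome 3) was higher in shSRC1, with 2392, 2458, 3031 and 3068 normalized reads in shSRC1 replicates 1 to 4 and 1535, 1658, 1865 and 1901 in shNT. The lowest shSRC1 library stood well clear of the highest shNT library. The means of 2737 ± 362 in shSRC1 and 1740 ± 174 in shNT (SD, n = 4 each) differed 1.57-fold, a log2 difference of 0.65 (SE 0.10). MCAM (CD146, chromosome 11) was also higher, with 363, 297, 281 and 260 normalized reads in shSRC1 and 227, 228, 162 and 180 in shNT. Its groups came closer to each other than those of ALCAM, and the log2 difference was 0.59 (SE 0.15). Their 20 chromosome neighbours had median log2 differences of -0.07 for ALCAM and -0.08 for MCAM.

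The neural adhesion genes stood the other way. L1CAM, which in carcinoma cells is linked to migration, had 5844, 4510, 4366 and 4091 normalized reads in shSRC1 replicates 1 to 4, against 8512, 7390, 8369 and 7040 in shNT. All shSRC1 libraries were lower, and replicate 1 was the closest to the controls. The mean was 4703 ± 780 in shSRC1 and 7828 ± 724 in shNT (SD, n = 4 each), 1.66-fold lower in shSRC1, with a log2 difference of -0.74 (SE 0.11). NCAM2 (chromosome 21) had 580, 642, 747 and 842 normalized reads in shSRC1 and 1140, 1215, 1367 and 1394 in shNT. It was 1.82-fold lower in shSRC1, with no overlap and a log2 difference of -0.87 (SE 0.12). That difference shrank to -0.59 when each library was corrected for its trend with transcript GC content and length. L1CAM lies on chromosome X among 20 neighbours with a median log2 difference of 0.12, and NCAM2 among 17 with a median of -0.09.

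BCAM, the laminin receptor, was the most abundant of the 10 genes per kb of exon in both groups. It had 4706, 4043, 3982 and 3817 normalized reads in shSRC1 replicates 1 to 4 and 6351, 5091, 5860 and 4623 in shNT. Among its shSRC1 libraries, replicate 1 alone reached into the range of the controls, and the log2 difference was -0.40 (SE 0.10). CEACAM5 had 23.7, 29.7, 21.8 and 30.2 normalized reads in shSRC1, against 57.5, 34.7, 37.1 and 53.8 in shNT. These rest on 99 and 201 reads in all. The ratio of these summed reads, scaled as for VCAM1, was 0.567 with an exact 95% counting interval of 0.441 to 0.725. That interval covers counting error only and is no test of the difference. The shNT libraries differed by a coefficient of variation of 25.3%. CEACAM6, its chromosome 19 neighbour, had 64.6, 80.5, 60.9 and 80.6 normalized reads in shSRC1 and 69.6, 69.3, 80.8 and 73.6 in shNT, a log2 difference of -0.04 (SE 0.18) with overlapping groups. CEACAM5 and CEACAM6 are close paralogs whose reads can be shared, so their separate values are uncertain.

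**Figure D2:**
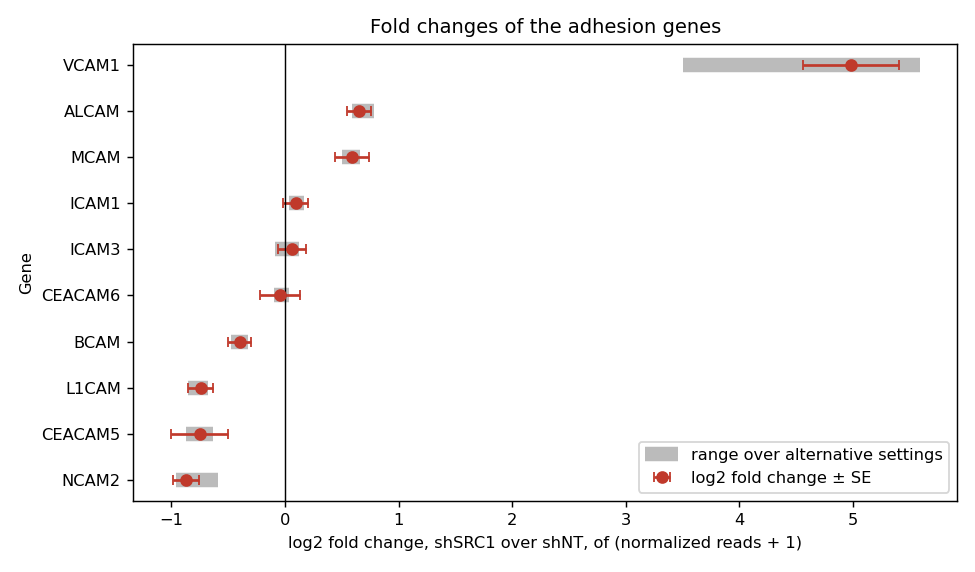
Log2 difference of (normalized reads + 1), shSRC1 over shNT (x axis), for the 10 adhesion genes (rows); red points with bars are the value and its SE, and grey bands are the range over the alternative settings. VCAM1 lies at 4.99 with a band of 3.50 to 5.59, while the other 9 lie between -0.87 and 0.65.

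Per kb of exon the 10 genes spanned 2 orders of magnitude in shSRC1, and more in shNT because of VCAM1. In shSRC1 the order was BCAM (826 normalized reads per kb), L1CAM (647), ICAM3 (442), ALCAM (381), ICAM1 (111), NCAM2 (83.9), MCAM (40.5), CEACAM6 (23.5), VCAM1 (11.02) and CEACAM5 (7.87). In shNT it was BCAM (1094), L1CAM (1077), ICAM3 (429), ALCAM (242), NCAM2 (153), ICAM1 (103), MCAM (26.9), CEACAM6 (24.0), CEACAM5 (13.7) and VCAM1 (0.226). The libraries of BCAM and L1CAM overlapped in both groups, as did those of ICAM3 and ALCAM and of ICAM1 and NCAM2 in shSRC1, and of MCAM and CEACAM6 in shNT; those neighbours in the order were not separated beyond their spread. NCAM2 stood above ICAM1 in every shNT library by this measure, and their order by mean was the other way round in shSRC1. With the longest transcript as the length, ALCAM and ICAM3 changed places in shSRC1.

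**Figure D3:**
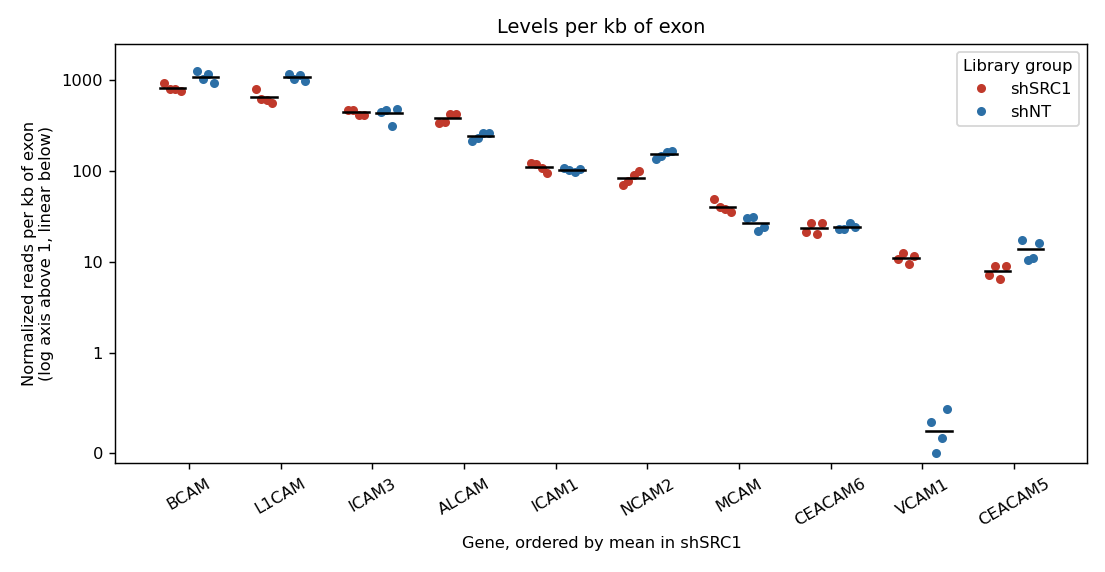
Normalized reads per kb of exon (y axis, logarithmic above 1 and linear below) for the 10 adhesion genes (x axis), with the 4 shSRC1 libraries (red, left) and the 4 shNT libraries (blue, right) of each gene and their mean (black line). VCAM1 goes with the rarest genes at 11.02 in shSRC1 and sits near 0 in shNT.

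In shSRC1 the order of the replicates within most of these genes went with the base composition of the transcript. In all 5 genes whose longest transcript was over 50% GC (ICAM1, ICAM3, L1CAM, MCAM and BCAM), shSRC1 replicate 1 was the highest and replicate 4 the lowest shSRC1 library. Of the 3 genes under 40% GC, ALCAM and NCAM2 showed the reverse order, lowest in replicate 1 and highest in replicate 4. VCAM1, at 35.0% GC, was highest in replicate 2 and lowest in replicate 3. Across 18787 genes, each library's deviation from the mean of all 8 libraries, rather than of its group, was set against GC content. Spearman's rho was 0.48, 0.19, -0.10 and -0.22 in shSRC1 replicates 1 to 4 and 0.18, -0.09, -0.22 and -0.21 in shNT replicates 1 to 4. These values describe the libraries and also take in the contrast between the groups. In shNT, ALCAM and NCAM2 were again lowest in replicate 1 and highest in replicate 4. Of the 5 genes over 50% GC, shNT replicate 1 was highest in 3, replicate 3 was lowest in 3, and replicate 4 was lowest in 2 and highest in 1 (ICAM3). After the correction for GC content and length, the log2 difference was 0.78 for ALCAM, and every member except ICAM3, at -0.0057, kept its direction.

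**Figure D4:**
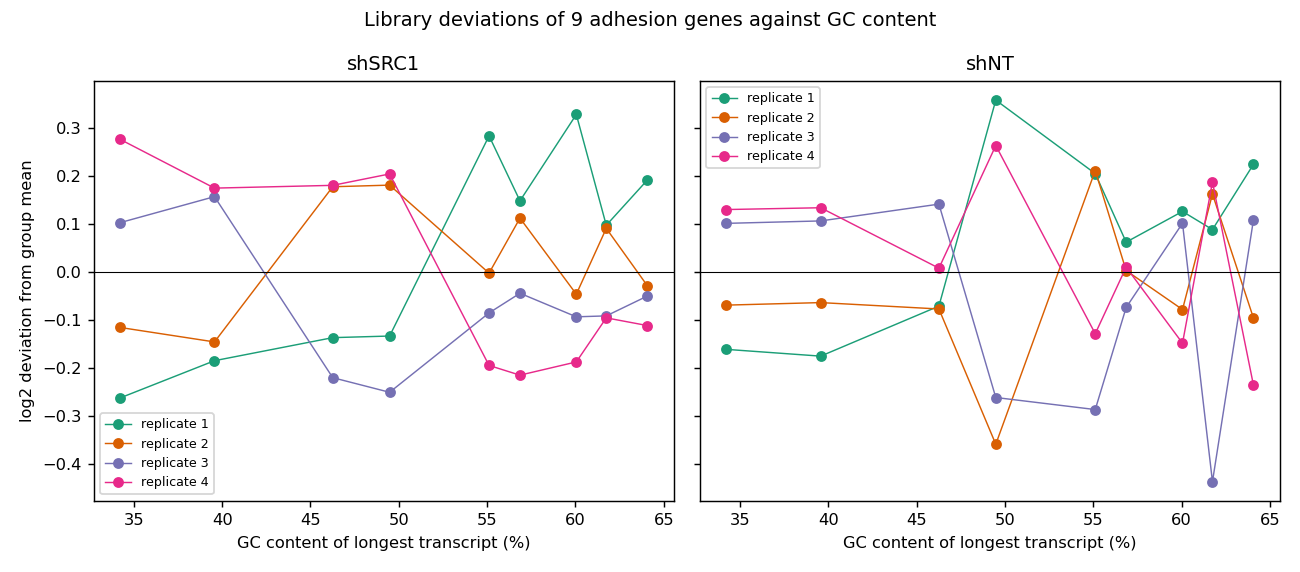
Log2 deviation of each library from its group mean (y axis) against the GC content of the longest transcript (x axis, %) for the 9 adhesion genes other than VCAM1, in shSRC1 (left) and shNT (right); colours are replicates. In shSRC1, replicate 1 lies below 0 for the GC-poor genes and above 0 for those over 50% GC, and replicate 4 does the opposite.

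The known partners of these molecules were read in the same LY2 libraries. Of 25 listed integrins, receptors and ligands, 17 were tested, 5 fell and 12 did not pass, or 29.4% called where 23.2% of all tested genes were. By direction, 12.0% of all tested genes were called higher and 11.2% lower. None rose in limma, edgeR or DESeq2, or at an unadjusted p under 0.05. At that unadjusted p 9 were lower, but the share of all tested genes at this threshold was not computed. The list's median log2 fold change was -0.23, against -0.0025 over all tested genes. The integrin subunits that pair into VCAM1 receptors were looked at whatever their values. ITGA4, the alpha4 subunit, was nearly undetected, with 1 read in all shSRC1 libraries and 4 in all shNT libraries. ITGA9, the alternative alpha subunit, had 21.5 ± 8.2 normalized reads in shSRC1 and 24.7 ± 10.9 in shNT (SD, n = 4 each), with a limma adjusted p of 0.800. ITGB1, the common beta1 subunit, had 7744, 8295, 9184 and 9948 normalized reads in shSRC1 replicates 1 to 4 and 10556, 11757, 10635 and 11920 in shNT, and fell by 0.36 on the log2 scale (SE 0.09, limma adjusted p = 0.0129). ITGB7, the beta7 partner of alpha4, fell to 47.0 ± 13.4 normalized reads in shSRC1, against 86.9 ± 21.1 in shNT (n = 4 each, limma adjusted p = 0.0207). ITGB2, the beta2 subunit that binds ICAMs, fell to 114 ± 26 normalized reads in shSRC1, against 212 ± 29 in shNT (n = 4 each, limma adjusted p = 0.0023). The semaphorin coreceptor NRP1, which binds L1CAM, fell by 0.45 on the log2 scale (limma adjusted p = 0.0028). MUC1, a mucin that binds ICAM1, fell by 1.04 (limma adjusted p = 0.0417). ITGB1 and NRP1 lie on chromosome 10, where 187 of 525 tested protein-coding genes were lower and 21 higher, and their 20 nearest neighbours had medians of -0.34 and -0.37; the part of that region in their values was not tested. The ITGB7 call was lost without shSRC1 replicate 1 or 3 or shNT replicate 1, and that of MUC1 without shSRC1 replicates 2, 3 or 4 or shNT replicates 1 or 3, with upper-quartile scaling, with no filter and with the GC correction and replicate block together. The 5 calls became 3 without shSRC1 replicate 3 or shNT replicate 1.

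Among other adhesion molecules of the same superfamily, calls ran both ways but more were lower. Of 67 listed, 37 were tested, of which 4 rose, 10 fell and 23 did not pass, or 37.8% called. Of all tested genes 23.2% were called, 12.0% higher and 11.2% lower. The list median was -0.10. CNTN1, a contactin and binding partner of L1-family proteins, had 28.5, 15.7, 33.6 and 27.5 normalized reads in shSRC1 replicates 1 to 4, against 128, 185, 187 and 169 in shNT. It fell by 2.65 on the log2 scale (SE 0.24, limma adjusted p = 2.38e-06). SDK1, a sidekick homophilic adhesion molecule of synapses, rose to 678 ± 117 normalized reads in shSRC1, against 199 ± 16 in shNT (SD, n = 4 each), or by 1.75 on the log2 scale (SE 0.13, limma adjusted p = 2.97e-07). Its paralog SDK2 fell by 0.51 (limma adjusted p = 0.0020). CLMP, a junctional relative of the coxsackievirus receptor, fell by 1.32, CEACAM19 by 1.12 and MPZL2, an epithelial homophilic adhesion protein, by 0.48 (limma adjusted p = 0.0021, 5.47e-05 and 0.0011). A further 30 listed genes were below the filter, and 6 of them had 0 reads.

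Genes tied to the transcription of VCAM1 and ICAM1 were called in both directions. Of 43 listed regulators, cytokine receptors and genes induced with VCAM1 in endothelium, 36 were tested, with a median log2 fold change of -0.02. In limma 4 rose, 6 fell and 26 did not pass, or 27.8% called. Of all tested genes 23.2% were called, 12.0% higher and 11.2% lower. BIRC3, an apoptosis inhibitor and NF-kB target, had 10.4, 19.2, 15.4 and 17.4 normalized reads in shSRC1 replicates 1 to 4, against 39.0, 58.6, 65.0 and 49.3 in shNT. It fell by 1.70 on the log2 scale (SE 0.28, limma adjusted p = 6.41e-04). The NF-kB subunit genes NFKB2 and REL fell by 0.58 and 0.45, and CHUK, which encodes the kinase IKK-alpha, by 0.43 (limma adjusted p = 9.14e-04, 0.0099 and 0.0035). The subunit genes RELA and NFKB1 did not pass, at 0.01 and -0.06 on the log2 scale (limma adjusted p = 0.951 and 0.609). NFKBIA, which encodes an NF-kB inhibitor, rose by 0.25, while TNFAIP3 fell by 0.46 (limma adjusted p = 0.0403 and 0.0185). The NFKBIA call was lost in 10 of 19 alternative settings and that of TNFAIP3 in 1. KLF4 fell by 0.36, and GATA2, an endothelial and blood factor that binds the VCAM1 promoter, rose by 0.52 (limma adjusted p = 0.0103 and 0.0056). GATA2 had 701, 609, 525 and 532 normalized reads in shSRC1 replicates 1 to 4 and 410, 459, 379 and 396 in shNT, without overlap. SELE and SELP, endothelial selectins induced together with VCAM1, had 0 and 1 reads in shSRC1 and 1 and 0 in shNT. NFKB2 and CHUK also lie on chromosome 10, with neighbour medians of -0.09 and -0.12. The 4 rises became 2 without shSRC1 replicate 1, shNT replicate 3 or shNT replicate 4, and 1 without shSRC1 replicates 2 or 3 or shNT replicate 1.

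Of 28 listed cytoplasmic partners, which include cytoskeletal linkers and signalling proteins, 26 were tested, with a median of -0.06. In limma 3 rose, 5 fell and 18 did not pass, or 30.8% called where 23.2% of all tested genes were. RDX, which encodes radixin, an ERM protein that ties VCAM1 and ICAMs to actin, had 3927, 3791, 4426 and 4584 normalized reads in shSRC1 replicates 1 to 4, against 8905, 9509, 10261 and 9956 in shNT. It fell by 1.21 on the log2 scale (SE 0.09, limma adjusted p = 2.25e-07). The related ERM gene EZR, for ezrin, stood at 11770 ± 322 normalized reads in shSRC1 and 12110 ± 1086 in shNT (SD, n = 4 each, limma adjusted p = 0.778). MSN, for moesin, had 23 reads in all shSRC1 libraries and 19 in all shNT libraries. SLC9A3R1, an ERM-binding scaffold, rose by 0.45 (limma adjusted p = 0.0047). FYN, a Src-family kinase downstream of NCAM and L1CAM, rose to 327 ± 47 normalized reads in shSRC1, against 144 ± 19 in shNT (n = 4 each), or by 1.18 on the log2 scale (SE 0.14, limma adjusted p = 5.41e-05). ANK2, which encodes an ankyrin, a class of adaptor that binds the L1CAM tail, rose by 2.30 (SE 0.32, limma adjusted p = 1.95e-04) from low counts: 38.0, 66.5, 34.5 and 36.7 normalized reads in shSRC1 and 5.57, 8.89, 10.2 and 7.18 in shNT. The scaffold gene DLG1 and the phosphatase gene PTPN11 fell by 0.40 and 0.43 (limma adjusted p = 0.0090 and 0.0036).

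Of 26 listed proteases that shed adhesion molecules, their inhibitors and glycosylation enzymes, 23 were tested, with a median of -0.01. In limma 3 rose, 4 fell and 16 did not pass, or 30.4% called where 23.2% of all tested genes were. The metalloprotease inhibitor genes split: TIMP3, which inhibits the sheddase ADAM17, rose by 0.65 on the log2 scale (SE 0.08, limma adjusted p = 6.26e-05). TIMP1 and TIMP2 fell by 0.46 and 0.40 (limma adjusted p = 0.0038 and 0.0048). ADAM8, a metalloprotease gene also on chromosome 10, fell by 0.66 and MMP9, a gelatinase, rose by 0.64 (limma adjusted p = 0.0049 and 0.0211). The MMP9 call was lost without shSRC1 replicates 1 or 4 or shNT replicate 1. The 3 rises became 1 without shSRC1 replicate 4 or shNT replicate 1. Over the 5 lists, 28 of 44 calls were kept in every alternative that tested the gene and 16 were lost in at least 1.

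**Figure D5:**
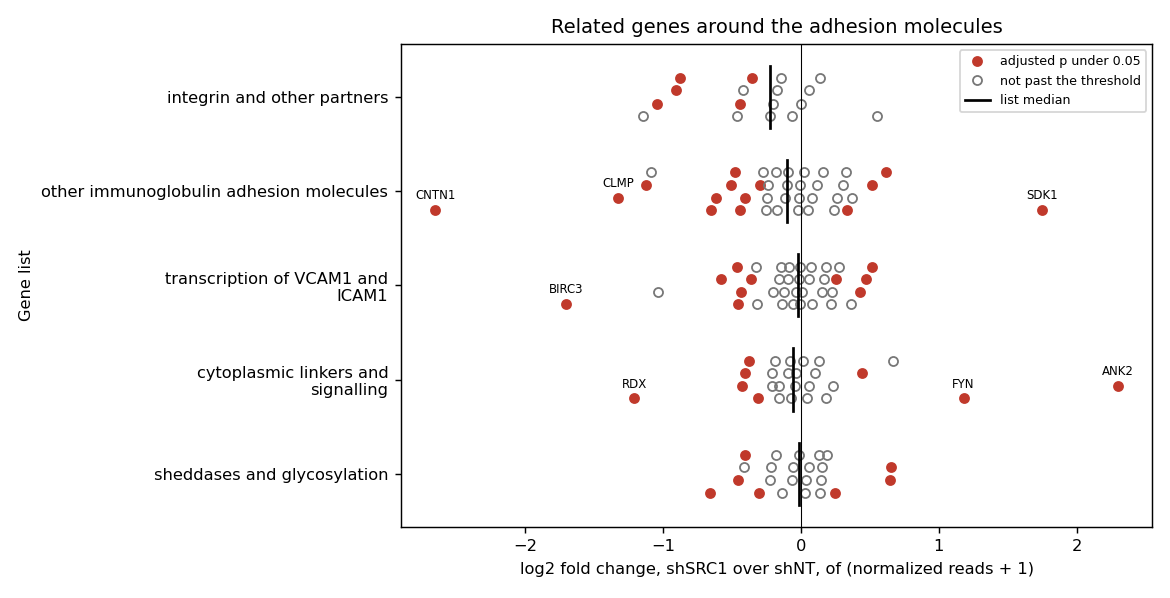
Log2 fold change of (normalized reads + 1), shSRC1 over shNT (x axis), for the tested genes of the 5 lists around the adhesion molecules (rows; vertical position within a row has no meaning). Filled red points passed an adjusted p of 0.05 in limma, open grey points did not, and black lines are list medians, from -0.23 for the integrin and other partners to -0.01 for the sheddases.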

How the data were processed

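Poly(A)-selected RNA of 8 LY2 libraries was sequenced by the submitters. The authors deposited 1 table of 63677 genes whose values are a signal, read counts divided by a size factor of each library; 100% of values were whole multiples of 1 step per library within 0.001 reads, so reads were recovered. TopHat2 2.0.12, HTSeq 0.6.1, DESeq2, DESeq and GRCh37 are named per the submitters' processing notes; the sources used here do not give counting options. The header names 8 value columns and leaves the symbol column unnamed.

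Log2(value + 1) was tested with limma 3.58.1 (R 4.3.3; trend, robust, two-sided, Benjamini-Hochberg) in 19559 genes reaching 10 normalized reads in 4 or more libraries. On the recovered reads, edgeR 4.0.16 (quasi-likelihood) called 2321 genes higher and 2316 lower and DESeq2 1.42.0 called 2660 and 2644, and the scripts were tested on simulated data. Lengths, GC content and gene order came from GENCODE 29 (GRCh38), joined by identifier. List entries matched by symbol in 220 of 225 cases and by another symbol in 5.

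The 10 genes and the lists were chosen with earlier results of these data known. Named genes were NCOA1, up to 6 called genes per list by smallest adjusted p, 4 integrin subunits and the 5 genes most correlated with VCAM1. RELA, NFKB1, NFKBIA, TNFAIP3, EZR, MSN, SELE, SELP, CDH1, chromosome neighbours and cell type markers were chosen after their values were seen. A few genes that the rule names are not reported here. Other alternatives were other scalings, filters and pseudocounts, each library left out, a replicate block and, added after seeing the data, a GC content and length correction.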

Additional observations from a re-analysis of the deposited data

Results flagged for a closer look

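Of 82 groups of 4 libraries (41 genes named by rule), 5 held a library whose gap to the nearest of the others exceeded Dixon's 95% critical value, where chance gives about 5% of groups. ANK2 stood at 66.5 normalized reads in shSRC1 replicate 2, the shallowest library, against 34.5 to 38.0 in the others. CLMP stood at 43.7 in the same library, against 22.7 to 24.7. ITGA4 had 0.916 normalized reads, a single read, in shSRC1 replicate 4 and 0 in the others. A single read among zeros is always flagged, so the 5% share does not hold for that group. KLF4 stood at 1137 in shNT replicate 3, against 1325 to 1360. SDK1 stood at 223 in shNT replicate 1, against 189 to 194. None of the 20 groups of the adhesion genes themselves was picked out.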

How the results depend on the processing

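Of 150 differences of the adhesion genes recomputed under settings that can move them, 142 moved by less than 1 SD of replicates with no change of sign; 39 more, under another filter or with the block, repeat a value by construction. VCAM1's log2 difference was 3.50 with a pseudocount of 5 and 5.59 in DESeq2. NCAM2's was -0.59 with the GC content and length correction, alone or with the replicate block. ICAM3's was -0.0057 with that correction, alone or with the block, and -0.0846 to 0.12 with each library left out, where CEACAM6's ran from -0.10 to 0.032. CEACAM5 was under a minimum of 50 and has no value there. Over all genes, 3537 were called higher with the correction and the block together (2344 without), and 1453 to 2291 lower with each library left out, fewest without shSRC1 replicate 2. Partners that fell numbered 8 with the replicate block, 8 with the correction and 3 to 6 with each library left out. Regulators that rose numbered 2 with TMM scaling, 1 with no filter and 1 to 6 with each library left out. Linkers that fell numbered 9 with the correction and 10 with the block as well. Sheddase-list genes that rose numbered 1 to 3 with each library left out. The causes were not tested. Both corrections were chosen after seeing the data. Same-numbered libraries deviated together with correlations of 0.24, -0.01, 0.13 and 0.14 across genes, not all over 0.1, so the numbers were not used as pairs, although 3 of 4 shSRC1 libraries correlated best with their own number; the replicate block gave 3290 higher and 3108 lower calls, and shSRC1 replicate 2 correlated best with shNT replicate 1 (0.07). Depth limits VCAM1, where 6 shNT reads set the width of its interval.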

Other observations

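Other adhesion genes lay below the filter and belong in no comparison; they were picked after their values were seen. CEACAM7, a relative of CEACAM5, had 63 reads in the shSRC1 libraries together and 27 in the shNT libraries. THY1, a small adhesion protein of neurons and stroma, had 0 in shSRC1 and 7 in shNT. ITGAX, the alpha subunit of a leukocyte integrin, had 9 in shSRC1 and 3 in shNT. The TNF receptor gene TNFRSF1B had 0 in shSRC1 and 7 in shNT, and ICAM2 and ICAM4, the ICAMs of endothelium and red cells, had 5 and 0 reads in each group.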
